A study of Mus musculus with 6 samples.

Results

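The HOX genes encode homeodomain transcription factors that give cells their position along the head-to-tail axis of the embryo. They were selected by symbol, as every gene of the platform annotation named Hoxa, Hoxb, Hoxc or Hoxd followed by a number. This rule found 38 genes with 57 probes, among 19057 genes and 45281 probes on the array. Transcript levels were measured with 1 Illumina bead array per sample in 3 Zfp423-GFP positive and 3 Zfp423-GFP negative samples. All 6 samples were cells of the stromal vascular fraction of epididymal fat of male Zfp423-GFP reporter mice, 5 weeks old and given no treatment that the labels mention, sorted as PDGFRβ-positive and negative for the endothelial protein CD31 and the leukocyte protein CD45, and then split by GFP fluorescence. RNA was amplified in 2 rounds. The samples were described as biological triplicates. How many animals gave each one, and how closely GFP follows Zfp423 in this line, the labels do not say, so p-values measure only the spread between these samples. Zfp423 itself was detected on all 6 arrays by 1 of its probes and differed between the groups by 0.12 ± 0.17 (log2, SE) (limma adjusted p = 0.694), so its transcript does not separate the sorted groups here.

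In mammals the HOX genes lie in clusters on separate chromosomes, and genes with the same number in different clusters, the paralogues, descend from the same ancestral gene. Within a cluster, genes with low numbers are switched on early and reach far towards the head, while genes with high numbers are switched on late and mark the lumbar, sacral and tail regions, the distal limb and the urogenital tract. Adult fibroblasts and fat cell precursors keep much of this pattern, and fat depots of different body regions differ in the HOX genes they transcribe. HOX proteins bind DNA together with cofactors of the PBX, MEIS and PREP families, and their clusters are held silent by Polycomb complexes and kept active by Trithorax complexes.

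Signals of HOX genes were found mainly in the middle of the numbered series. A gene was counted as detected when at least 1 of its probes had a detection p under 0.01, that is, a signal above the negative control beads of the same array, on 3 or more of the 6 arrays, counted over both groups together. By this measure 14 of the 38 HOX genes (36.8%) were detected, against 46.3% of all genes on the array, and 16 of the 57 probes (28.1%) against 30.3% of all probes. Of the 15 genes numbered 4 to 8, 9 were detected, and of the 4 genes numbered 9, 2 were. Of the 12 genes numbered 10 to 13, which pattern the lower trunk, limb ends and urogenital tract, only Hoxa13 was. Among the 7 genes numbered 1 to 3, only the paralogues Hoxa2 and Hoxb2 were.

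**Figure D1:**
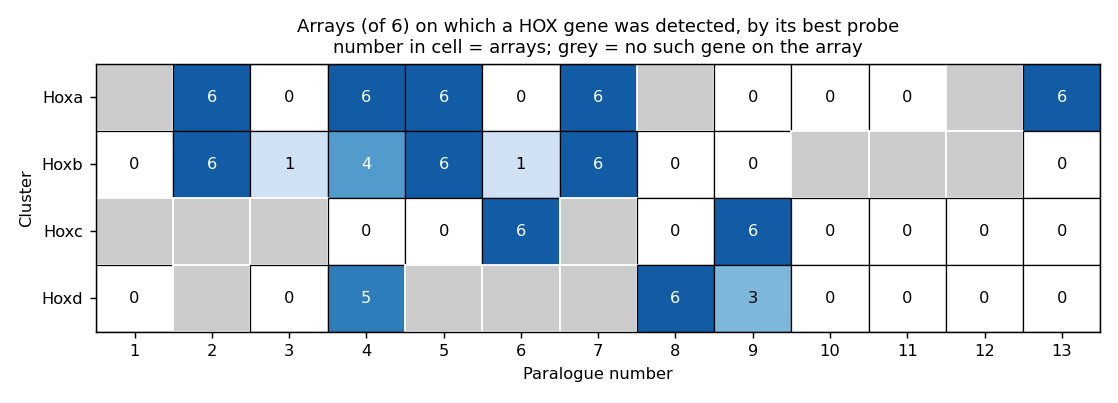
Detection of 38 HOX genes by cluster (rows) and paralogue number (columns). The number in each cell counts the arrays, of 6, on which the gene's best probe had a detection p under 0.01, and grey cells have no gene on the array; 11 genes reached 6 arrays, and only Hoxa13 was detected among the genes numbered 10 to 13.

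Every cluster held detected genes. The detected shares were 50% for Hoxa, 40% for Hoxb, 22.2% for Hoxc and 33.3% for Hoxd. These stand beside 36.8% of all HOX genes and 46.3% of all genes on the array. With so few genes per cluster, the shares differ by few genes, and whether the clusters differ was not tested. In the Hoxa cluster 5 of 10 genes were detected (Hoxa2, Hoxa4, Hoxa5, Hoxa7 and Hoxa13), in the Hoxb cluster 4 of 10 (Hoxb2, Hoxb4, Hoxb5 and Hoxb7), in the Hoxc cluster 2 of 9 (Hoxc6 and Hoxc9) and in the Hoxd cluster 3 of 9 (Hoxd4, Hoxd8 and Hoxd9). By the annotated order along the chromosome, detected genes formed an unbroken run in no cluster. The undetected Hoxa3 and Hoxa6 lay between detected members, as did Hoxb3 and Hoxb6, Hoxc8, and Hoxd3. The longest such gap held Hoxa9, Hoxa10 and Hoxa11, between Hoxa7 and Hoxa13. The annotated spans of Hoxa3, Hoxb3 and Hoxd3 contain detected genes, so whether these 3 genes interrupt a run depends on how nested genes are ordered. Hoxd3 was the only undetected gene between Hoxd9, Hoxd8 and Hoxd4. Of the 14 detected genes, 11 were detected on all 6 arrays, Hoxd4 on 5, Hoxb4 on 4 and Hoxd9 on 3.

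An undetected probe does not show that a gene is silent. Of the 24 HOX genes that missed the rule, 22 had no probe below the detection limit on any array, while Hoxb3 and Hoxb6 each passed on 1 GFP-negative array (detection p of 0.00534 and 0.00321). The probes of Mtx2 and Cbx5, broadly transcribed genes beside the Hoxd and Hoxc clusters, were not detected on any array either. Probes of the same gene also differed. Hoxa13, known for its part in digits and the genital tubercle, had signal at 1 of its 3 probes (ILMN_3087004, all 6 arrays), while the other 2 were at background throughout. Hoxd9 had signal at 1 of 2 probes (ILMN_2800183). Both probes of Hoxa2 and both of Hoxb7 were detected on all 6 arrays. Where the probes lie on the transcripts was not examined. In the RefSeq annotation Hoxa4, Hoxa5 and Hoxa6 lie within the span of Hoxa3, Hoxb4 within that of Hoxb3 and Hoxd4 within that of Hoxd3, so a signal of an inner gene could include transcripts that start further out. The probes of these outer genes were at background on nearly all arrays.

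The number of HOX genes detected was similar in both populations. It was 13, 13 and 14 with GFP and 13, 15 and 12 without, so the ranges overlapped. Genes whose detection was not the same on every array were Hoxb4, Hoxd4 and Hoxd9 and, outside the rule, Hoxb3 and Hoxb6. Hoxd9 was detected on 2 GFP-positive arrays and 1 GFP-negative array, Hoxd4 on 3 and 2, and Hoxb4 on 2 and 2.

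No HOX gene passed the test for a difference between GFP-positive and GFP-negative cells. limma's moderated linear model was fitted to background-corrected, quantile-normalized log2 intensities, and a gene was called at an adjusted p under 0.05 (Benjamini-Hochberg, across every tested probe). Of the 14 tested HOX genes 0 were higher and 0 lower, where 15.8% of all 8819 tested genes passed, 8.65% as higher and 7.17% as lower. Their adjusted p ran from 0.0750 (Hoxd4) to 0.984 (Hoxa13). At an unadjusted p under 0.05, 3 HOX genes were higher and 0 lower, where 30.9% of tested genes passed in either direction. The groups did not overlap for 2 of the 14 genes (Hoxd4 and Hoxd8), both higher in GFP-positive cells, against 36.5% of tested genes, 17.7% higher and 18.8% lower. The median difference over the 14 genes was 0.054 (log2), and the median size of a difference, whatever its sign, was 0.087, beside 0.22 over all tested genes. The median standard error was 0.16 for HOX genes and 0.14 for all tested genes. For 12 of the 14 the 95% interval lay within a 2-fold change in either direction, as it did for 81.1% of tested genes. With 3 arrays per group, differences that lie inside these intervals are not excluded.

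**Figure D2:**
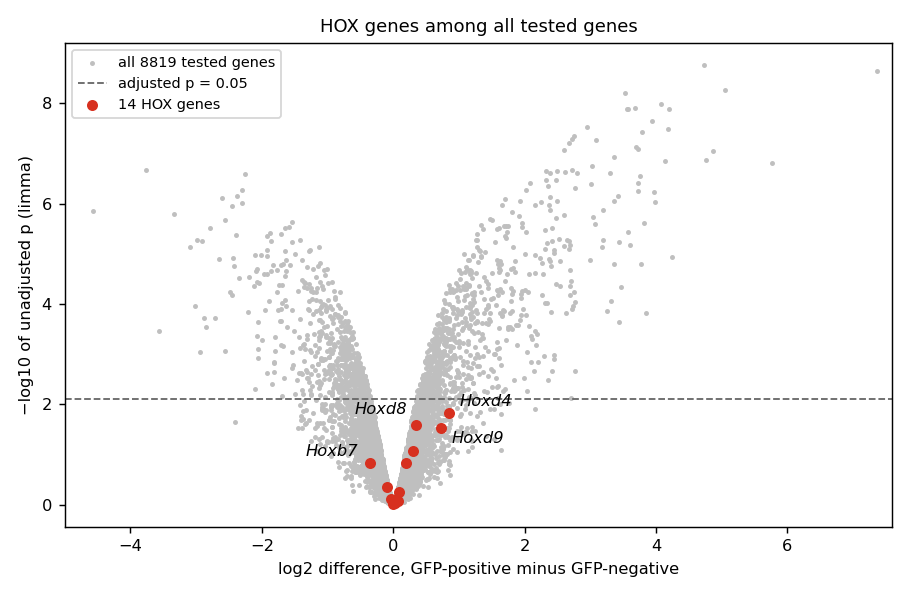
Each point is 1 tested gene, with its log2 difference between GFP-positive and GFP-negative cells on the x axis and −log10 of the unadjusted limma p on the y axis. The 14 HOX genes (red) all lie below the dashed line at an adjusted p of 0.05, with Hoxd4 nearest to it, among 8819 tested genes of which 1395 passed.

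The Hoxd genes were the only HOX cluster in which every tested member read higher in GFP-positive cells with an interval that left out 0, and none of them passed after adjustment. Hoxd4, which patterns the hindbrain and the upper neck vertebrae, gave normalized log2 intensities of 6.43, 7.15 and 6.81 with GFP and 6.18, 6.22 and 5.45 without. All GFP-positive arrays lay above all GFP-negative ones. The lowest was GFP-negative replicate 3, where the probe was at background by the array's own detection p of 0.07692. The difference was 0.85 ± 0.26 (SE, 95% interval 0.22 to 1.47; limma adjusted p = 0.0750), or 1.80-fold. Hoxd8, a gene of the trunk, was detected on all 6 arrays at 10.08, 10.40 and 10.14 in GFP-positive and 9.77, 9.97 and 9.83 in GFP-negative cells. Again the groups did not overlap, with a difference of 0.35 ± 0.13 (95% interval 0.057 to 0.65; limma adjusted p = 0.108), or 1.28-fold. Hoxd9, which acts in the lumbosacral region and the upper limb segment, read 6.06, 6.96 and 6.42 against 5.49, 6.15 and 5.63. GFP-negative replicate 2 lay above GFP-positive replicate 1, so the groups overlapped, and the difference was 0.72 ± 0.27 (95% interval 0.093 to 1.35; limma adjusted p = 0.118), or 1.65-fold.

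The signals behind Hoxd4 and Hoxd9 were close to background. Other detected genes also had low deposited signals, namely Hoxb4 (175.5 to 236.7), Hoxa4 (210.9 to 252.5) and Hoxa13 (232.1 to 272.5). The deposited signal of the Hoxd4 probe was 164.0 to 284.6 and that of the Hoxd9 probe 170.1 to 265.2, on arrays whose median signals lay between 145.8 and 162.0, while the Hoxd8 probe gave 991.8 to 1531.7. Without background correction the difference of Hoxd4 shrank to 0.33 (adjusted p = 0.0811) and that of Hoxd9 to 0.27 (adjusted p = 0.155), whereas that of Hoxd8 was 0.31 (adjusted p = 0.0709). The other Hoxd9 probe was at background on all 6 arrays. The probes of Hoxd3, Hoxd10, Hoxd11, Hoxd12, Hoxd13 and Hoxd1 were also at background on all 6 arrays. Hoxd4 and Hoxd9 passed the detection filter with more GFP-positive than GFP-negative arrays. Whether the filter had a part in their differences was not tested. Under some alternatives, such as leaving out GFP-positive replicate 2 or 3 or GFP-negative replicate 2, Hoxd9 missed the filter and had no value.

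The promoter regions of these Hoxd genes are shown because these are the only Hoxd genes that were tested, and they lie close together on chromosome 2. Each covers 250 bases before to 50 bases after the annotated start, from RefSeq on build GRCm38.p6, all on the + strand: Hoxd4 at chr2:74721728-74722027, Hoxd8 at chr2:74704365-74704664 and Hoxd9 at chr2:74697513-74697812. Capitals mark matches, on either strand, to AGGTCA, the half-site of retinoid and other nuclear receptors, to TGATNNAT, a PBX-HOX composite site, or to TGACAG, a MEIS or PREP core. No sequence held more than 1 match, so no motifs overlapped.
Hoxd4: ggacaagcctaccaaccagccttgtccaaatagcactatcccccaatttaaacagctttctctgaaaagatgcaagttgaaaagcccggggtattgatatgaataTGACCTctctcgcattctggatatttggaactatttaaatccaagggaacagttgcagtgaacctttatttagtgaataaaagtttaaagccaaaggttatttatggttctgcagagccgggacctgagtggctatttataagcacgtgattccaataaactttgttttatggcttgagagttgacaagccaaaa
Hoxd8: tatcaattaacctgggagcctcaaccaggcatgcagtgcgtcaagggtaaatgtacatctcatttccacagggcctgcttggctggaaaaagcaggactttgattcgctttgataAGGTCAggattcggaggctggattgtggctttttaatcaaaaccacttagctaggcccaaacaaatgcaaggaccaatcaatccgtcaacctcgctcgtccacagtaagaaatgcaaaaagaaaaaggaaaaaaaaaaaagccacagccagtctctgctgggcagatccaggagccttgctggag
Hoxd9: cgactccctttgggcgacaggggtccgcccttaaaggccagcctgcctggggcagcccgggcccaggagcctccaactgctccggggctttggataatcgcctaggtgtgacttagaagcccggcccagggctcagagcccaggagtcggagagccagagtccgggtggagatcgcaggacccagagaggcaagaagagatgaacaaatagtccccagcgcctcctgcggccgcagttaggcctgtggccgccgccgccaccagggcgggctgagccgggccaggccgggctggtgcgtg

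Hoxd4 and Hoxd8 each held 1 match to the nuclear receptor half-site and Hoxd9 none, and the other motifs had no match in these 3 sequences. Of all 32851 promoter sequences of this length, 16.3% held the receptor half-site, 8.85% the PBX-HOX site and 19.2% the MEIS or PREP core. The Hoxd4 and Hoxd8 sequences were poor in CpG, with 4 and 6 CpG dinucleotides and an observed over expected ratio of 0.339 and 0.367, while Hoxd9 had 20 and 0.573, beside a median ratio of 0.384 over all promoters. Promoter entries were found for 22 of the 38 HOX genes, 8 of them detected. The median ratio was 0.581 over the 8 sequences of detected genes and 0.770 over the 16 sequences of undetected genes.

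In the Hoxb cluster Hoxb7 had the largest difference. Hoxb7, which marks the thoracic region and the ureteric bud, read 10.87, 11.55 and 10.88 with GFP and 11.68, 11.26 and 11.41 without by its brighter probe (ILMN_2946183). GFP-positive replicate 2 lay within the GFP-negative range, and the other 2 GFP-positive arrays below it. The difference was -0.35 ± 0.21 (95% interval -0.86 to 0.16; limma adjusted p = 0.320). The other probe (ILMN_2946184) read 8.46, 9.06 and 8.30 against 9.49, 9.15 and 8.93, with the same GFP-positive array highest and the groups overlapping through it. Its difference was -0.58 ± 0.23 (95% interval -1.14 to -0.027; limma adjusted p = 0.147). By the brighter probe, the difference was -0.57 without GFP-positive replicate 2 (adjusted p = 0.0773) and -0.23 without GFP-negative replicate 1.

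The other Hoxb genes differed by less than the spread between arrays. Hoxb2, a gene of the hindbrain and cranial nerves, read 11.36, 11.36 and 10.96 in GFP-positive and 11.55, 10.83 and 11.17 in GFP-negative cells, and the groups differed by 0.042 ± 0.21. Hoxb5, active in the gut nervous system and lung, read 10.32, 10.21 and 9.98 against 10.43, 10.06 and 9.97, a difference of 0.020 ± 0.16. Both had group ranges that overlapped almost completely. Hoxb4, known from blood stem cells and the neck vertebrae, read 6.40, 6.11 and 6.54 against 5.58, 6.89 and 6.39, so the highest and the lowest array were both GFP-negative. Its interval was the widest of the HOX genes, from -0.69 to 0.82 around 0.066.

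**Figure D3:**
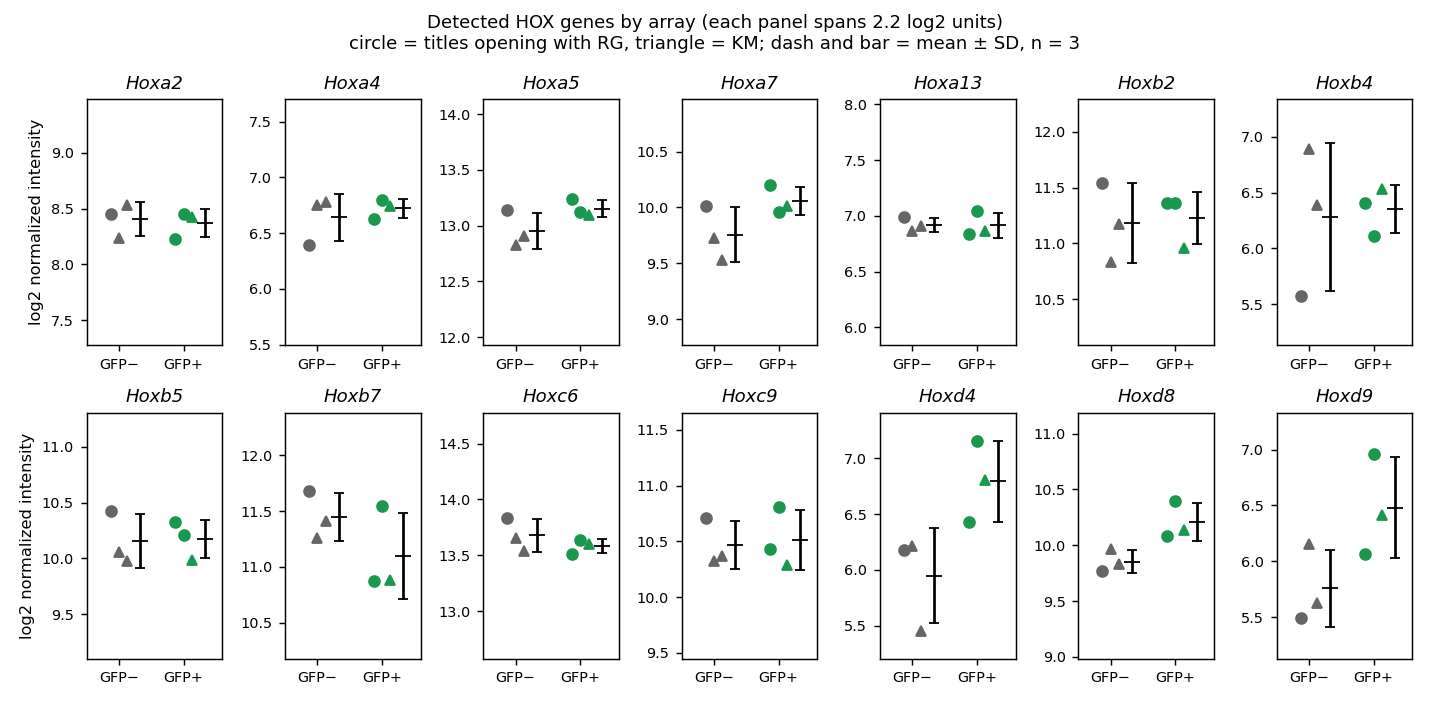
Normalized log2 intensity of the 14 detected HOX genes on each array, GFP-negative (grey) and GFP-positive (green), with mean ± SD (n = 3); each panel spans the same 2.2 log2 units and levels are not comparable between genes. Groups separate only for Hoxd4 and Hoxd8, and for Hoxa5, Hoxb2, Hoxb5 and Hoxc9 the arrays titled RG (circles) all lie above those titled KM (triangles).

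Among the Hoxa genes, Hoxa5 and Hoxa7 read higher on average in GFP-positive cells without passing. Hoxa5, which patterns the neck and upper thorax and is strongly transcribed in fat tissue, read 13.24, 13.12 and 13.09 in GFP-positive and 13.14, 12.82 and 12.90 in GFP-negative cells. GFP-negative replicate 1 lay within the GFP-positive range, and the difference was 0.20 ± 0.12 (95% interval -0.089 to 0.48; limma adjusted p = 0.319). Hoxa7, a gene of the upper thorax, read 10.20, 9.96 and 10.01 against 10.02, 9.72 and 9.53. Here too GFP-negative replicate 1 overlapped the GFP-positive arrays, with a difference of 0.30 ± 0.15 (95% interval -0.055 to 0.66; limma adjusted p = 0.228). Hoxa4, a gene of the neck vertebrae, differed by 0.081 ± 0.14 and Hoxa13 by -0.0044 ± 0.11. For Hoxa2, which specifies the branchial arches, the brighter probe differed by -0.039 ± 0.12 and the other by 0.072 ± 0.11.

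Neither Hoxc gene differed beyond the spread between arrays. Hoxc6, a thoracic gene, read 13.51, 13.64 and 13.60 in GFP-positive and 13.83, 13.66 and 13.54 in GFP-negative cells. Its difference of -0.092 ± 0.11 had a 95% interval of -0.36 to 0.18 (limma adjusted p = 0.637), which leaves out changes above 1.13-fold upward and below 0.777-fold downward. Hoxc9, a gene of the lower thorax, read 10.44, 10.81 and 10.29 against 10.71, 10.32 and 10.37. The ranges overlapped almost completely, with a difference of 0.042 ± 0.18 (95% interval -0.37 to 0.46; limma adjusted p = 0.901). Paralogues of these genes were at background on all 6 arrays, namely Hoxb9 and Hoxa9 beside Hoxc9 and Hoxa6 beside Hoxc6, apart from Hoxb6 on 1 array and Hoxd9 as described.

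**Figure D4:**
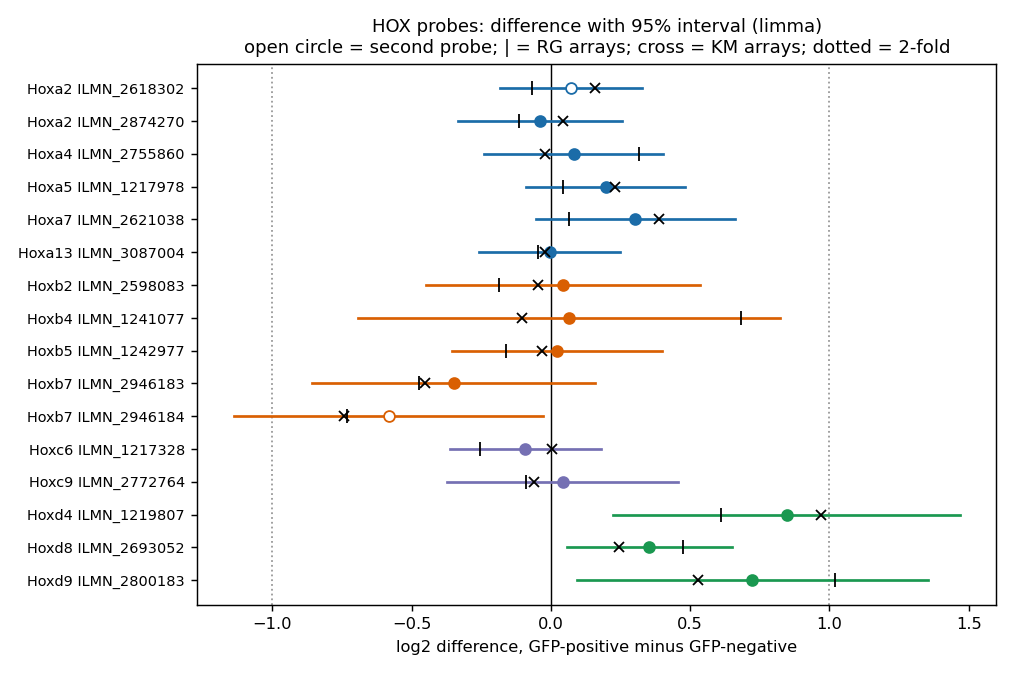
Log2 difference between GFP-positive and GFP-negative cells for the 16 tested HOX probes (circles, open for the dimmer probe of a gene) with 95% intervals from limma; vertical ticks and crosses give the difference within the arrays titled RG and KM. Intervals leave out 0 for the 3 Hoxd genes and the dimmer Hoxb7 probe, and no probe passed after adjustment over all probes.

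Several HOX genes separated by the letters that open the sample titles. The titles open with RG for GFP-positive replicates 1 and 2 and GFP-negative replicate 1, and with KM for the others; the labels do not say what the letters stand for. Hoxa5, Hoxb2, Hoxb5 and Hoxc9 read higher on all 3 RG arrays than on any KM array, by 0.22, 0.43, 0.32 and 0.33 on average. More of the RG than of the KM arrays are GFP-positive, so these averages include part of any GFP difference. For Hoxa5 the GFP difference was 0.20, and the lowest RG array, at 13.12, lay just above the highest KM array, at 13.09. This makes 4 of the 14 HOX genes with RG higher and 0 with RG lower, where RG and KM arrays did not overlap for 12.3% of tested genes, 6.84% with RG higher and 5.48% with RG lower. With the letters as a block the differences between GFP groups for Hoxb2, Hoxb5 and Hoxc9 were -0.12, -0.096 and -0.075, opposite in sign to those without it, and none passed. Within the RG and the KM arrays the difference was 0.61 and 0.97 for Hoxd4, 0.47 and 0.24 for Hoxd8, 1.02 and 0.53 for Hoxd9, and -0.47 and -0.45 for Hoxb7. Hoxa5, Hoxa7 and Hoxa13 also had the same sign within both sets as over all arrays, and each set holds a lone array of one group.

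The partners of HOX proteins did not pass either. Of 9 cofactor genes of the PBX, MEIS and PREP families 8 were on the array and 5 were tested, with 0 higher and 0 lower and a median difference of 0.048, beside -0.020 over all tested genes. Of 22 genes within or beside the clusters 13 were on the array and 5 tested, and 0 passed. Of 24 chromatin regulators of the clusters 16 were tested, and 1 was higher and 1 lower, where 15.8% of all tested genes passed in either direction. Cbx8, a Polycomb reader of trimethylated histone H3, rose by 0.93 ± 0.22 (limma adjusted p = 0.0358), and Kdm6b, which removes that mark, fell by 0.62 (limma adjusted p = 0.0498). The Cbx8 probe was detected on 3 GFP-positive arrays and 1 GFP-negative array, so its rise was measured against a group mostly at background. The Cbx8 call was lost under 7 of 16 alternatives, among them without each array but GFP-negative replicate 1 (0.74 to 1.11 with single arrays left out). Without background correction the difference was 0.43. The Kdm6b call was lost under 8 of 17, among them without GFP-positive replicates 1 and 2 and GFP-negative replicates 2 and 3, each left out singly (-0.76 to -0.53).

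Some positional transcription factors outside the HOX clusters and some retinoid genes passed the test, and most did not. Of 12 tested positional factors, 2 rose and 3 fell, where 8.65% of all tested genes passed as higher and 7.17% as lower. Meox2, a homeobox gene of the early somite, read 10.09, 10.36 and 10.46 in GFP-positive and 8.24, 7.74 and 7.34 in GFP-negative cells. It rose by 2.53 ± 0.23 (limma adjusted p = 0.000863) and passed under all 17 alternatives. Nr2f2 rose by 1.24 (limma adjusted p = 0.0448), and its call was lost under 10 of 16 alternatives, among them without each array but GFP-positive replicate 2 (1.02 to 1.61 with single arrays left out), and the difference was 0.60 without background correction. Tbx3 fell by 0.60, Tcf21 by 0.47 and Twist1 by 0.68 (limma adjusted p = 0.0205, 0.0222 and 0.0191). Their calls were lost under 4, 6 and 3 of 17 alternatives. For Tbx3 these were without GFP-positive replicate 1 or 3 or GFP-negative replicate 2 or 3 (-0.71 to -0.55), and for Tcf21 the replicate block and leaving out any array but GFP-positive replicate 1 (-0.51 to -0.44). For Twist1 they were the replicate block and leaving out GFP-positive replicate 1 or GFP-negative replicate 2 (-0.76 to -0.59). Of 18 retinoid and Cdx genes, inputs that set HOX expression in the embryo, 7 were tested, and Aldh1a1 rose while Rarb fell, beside the same share of 15.8% over all tested genes. Rarb, a retinoic acid receptor, read 8.02, 8.41 and 8.30 in GFP-negative cells and was below the detection limit on every GFP-positive array, which makes it at least 4.07-fold lower in GFP-positive cells (limma adjusted p = 0.000205). For this bound, each GFP-positive array entered with its lowest detected value, or with the probe's value where that was larger. The bound rests on the background correction, without which the difference was -1.23 on the log2 scale, and the call held. Aldh1a1, an enzyme that makes retinoic acid, rose by 0.61 ± 0.11 (limma adjusted p = 0.0114). None of Cdx1, Cdx2 and Cdx4 was detected on any array. In all, 9 genes of this list were not detected on any array. The median differences over the tested members were 0.033 for the retinoid and Cdx genes, -0.035 for the positional factors, 0.0015 for the chromatin regulators and -0.18 for the genes within or beside the clusters.

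Markers of some other cells differed between the GFP groups, from lists chosen with earlier results known, and the counts stand beside 15.8% of all tested genes that passed. All 7 stromal markers on the array were detected, and Pdgfrb and Col1a2 rose, with summed deposited signals of 84281 to 94506 on GFP-positive and 74533 to 83141 on GFP-negative arrays. Of 8 mural cell markers on the array 6 were tested and 6 rose, while Rgs5 and Cspg4 missed the detection filter. Summed deposited signals were 9366 to 14244 on GFP-positive and 5460 to 7064 on GFP-negative arrays. Abcc9 and Kcnj8 were detected on 3 GFP-positive and 0 GFP-negative arrays, so they entered the test only through the group where they are high. Their rises are lower bounds, at least 4.79-fold and 4.71-fold with background correction. Of the mural calls, Kcnj8 was lost under 9 of 13 alternatives. Among them were no background correction (1.497, where it was 2.71 with it) and leaving out any 1 GFP-negative array. Des was lost under 7 of 17, among them without each array but GFP-negative replicate 1 (0.65 to 0.95), and Acta2 under 3 of 17, among them without GFP-negative replicate 2 or 3 (0.83 to 1.09). Pdgfrb was lost under 3 of 17, among them without replicate 2 of either group (0.53 to 0.64). The endothelial list summed to 5424 to 5799 against 11472 to 12172, and of its 6 tested markers only Tek passed. Tek, an angiopoietin receptor with the highest intensity of that list, weighs most in this sum of linear signals. It read 11.73, 11.59 and 11.40 against 13.28, 13.22 and 13.15. The others were Pecam1, the gene of CD31, at -0.41, Cldn5 at -0.39, Egfl7 at 0.063, Cdh5 at 0.61 and Emcn at 0.74, the last with a limma adjusted p of 0.0657. Of 6 leukocyte markers on the array 3 were tested, and Csf1r and Lyz2 rose. Both were detected on 3 GFP-positive and 0 GFP-negative arrays, so they entered the test only through the group where they are high. Their rises are lower bounds, at least 2.42-fold and 6.96-fold with background correction. The defining gene Ptprc, which encodes CD45, was not detected on any array. The list of epididymal duct epithelium, a tissue next to this fat depot that is known to express posterior HOX genes, held 6 genes on the array. Of these, Lcn8, a lipocalin of the epididymis, read 9.58, 9.64 and 9.34 in GFP-positive and 5.56, 6.58 and 5.69 in GFP-negative cells, where 1 of 3 arrays detected it. It rose (limma adjusted p = 0.000405), by 3.57 on the log2 scale with background correction and 2.16 without, against a group mostly at background, while the other 5 were not detected on any array; summed signals were 1647 to 1770 against 908 to 964. Mesothelial markers summed to 1602 to 3497 against 1574 to 1872, and adipocyte markers to 893 to 1171 against 764 to 889. The part of these other cells in the HOX values was not tested. In sorted bulk samples, fewer cells that transcribe a gene and less RNA per cell cannot be told apart.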

How the data were processed

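The authors deposited bead signals as linear intensity values, not normalized between arrays, and beside each a p-value for detection, as the file headers name it. The submitters' processing notes name GenomeStudio; its version: not given in the sources. A further table held the authors' intensity values after normalization, used as an alternative. Symbols came from the platform annotation, and all 57 HOX probes matched RefSeq gene numbers, with 0 symbols changed. The signals went through neqc of limma 3.58.1 (R 4.3.3), which corrects background by normexp using the detection values, adds 16, sets equal quantiles and takes log2. The 13727 probes with detection p under 0.01 on 3 or more arrays entered lmFit and eBayes, 2-sided, with all 6 samples. Where several probes of a gene entered, the one brightest on average over the 6 arrays stood for it. HOX genes were named throughout, and from the other lists those past the threshold; Mtx2, Cbx5, the Cdx genes and Pecam1, Ptprc and Lcn8 were singled out after their values were seen. The fit was also run on simulated data with planted changes and independent noise on each array. That simulation held no title-letter effect and no pairing, so it does not cover either.

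Members and lists were chosen with earlier results of these data known. Arrays correlated at 0.982 to 0.990 within groups and 0.948 to 0.960 between them over the tested probes. Between 13068 and 14026 probes were detected per array, and the number of arrays limits the precision. Alternatives were median scaling, the authors' values, signals with no background step, changed detection filters, blocks for the title letters and the replicate numbers, single arrays left out, a trended robust prior, array weights, the mean over probes and a threshold of 0.1; applying them to genes outside the HOX set was chosen after seeing the data.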

Additional observations from a re-analysis of the deposited data

How the results depend on the processing

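Of 18 alternatives, 16 left 0 HOX genes higher and 17 left 0 lower. The exceptions were Hoxd9, higher with a replicate block (1 gene; 0.72 ± 0.12, limma adjusted p = 0.0301), Hoxd4, higher at a threshold of 0.1 (1 gene), and Hoxc5, lower with a detection limit of 0.05 (1 gene; -0.58 ± 0.14, limma adjusted p = 0.0395), where its probe first entered the test. Deviations from the group means correlated at -0.07, -0.2 and 0.075 between same-numbered samples. Between samples with different numbers the values ran from -0.202 to 0.253. The highest joined GFP-positive replicate 2 and GFP-negative replicate 1, both titled RG. With so few arrays per group, and title letters that also differ between arrays, these correlations cannot show whether the numbers pair the samples. The replicate block gave 558 genes higher and 383 lower over all genes, where 763 and 632 passed without it. The number of genes lower was 409 without a detection filter, with more genes tested, and 1006 at a threshold of 0.1. With single arrays left out, 451 to 693 genes were higher and 223 to 534 lower. Detected HOX genes numbered 15 with a detection limit of 0.05, 16 with 1 array required, 11 with all 6 required, and 13 to 14 with single arrays left out.

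Of 232 values of single HOX genes under alternatives, 27 turned their sign, and no gene with a turned sign passed under any setting run. With median scaling, Hoxa13 read 0.0063, Hoxb2 -0.015, Hoxb5 -0.030 and Hoxc9 -0.0041. With the title letters as a block, Hoxb2 read -0.12, Hoxb5 -0.096 and Hoxc9 -0.075. With array weights, Hoxa13 read 0.0026 and Hoxb4 -0.074, and over the mean of its probes Hoxa2 read 0.017. With single arrays left out, the range was -0.068 to 0.034 for Hoxa13, -0.12 to 0.032 for Hoxa2, -0.041 to 0.15 for Hoxa4, -0.13 to 0.22 for Hoxb2, -0.29 to 0.37 for Hoxb4, -0.070 to 0.16 for Hoxb5 and -0.11 to 0.17 for Hoxc9. The cause of these changes was not tested. Hoxa5, Hoxa7, Hoxb7, Hoxc6, Hoxd4, Hoxd8 and Hoxd9 kept their sign throughout.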
